A study of Mus musculus with 18 samples.

Results

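Myofibroblasts are fibroblasts that have taken on the contractile apparatus of smooth muscle, and 10 genes that are commonly read as signs of that state were followed through the first days of acute myocardial infarction (AMI) in the mouse. The 10 were chosen by symbol, with earlier results of these data known, out of 24419 symbols in a table of expression values in FPKM, fragments per kilobase scaled to the mapped fragments of a library. They are 7 genes of the contractile apparatus (Acta2, Tagln, Cnn1, Cnn2, Myl9, Tpm2 and Tpm4), 2 cell surface genes of activated fibroblasts (Fap and Lrrc15) and Myh11, the heavy chain of smooth muscle myosin, which served as the smooth muscle reference. All 10 were found once in the table, and all 10 reached an FPKM of 1 in at least 1 of the 18 mice. RNA came from the left ventricle of male C57BL/6 mice, 8 weeks old, that were not genetically modified. In the AMI groups the proximal left anterior descending branch of the coronary artery was tied off. By the study, infarcted tissue of the left ventricle was then taken 10 min, 1 h, 6 h, 24 h or 72 h later. The control mice carry the label control and are called sham by the study. Every group held 3 mice, all of them given sodium pentobarbital as the anaesthetic by the labels. RNA of all cells in the sampled tissue was sequenced together, so that fewer cells of a type and less RNA per cell cannot be told apart.

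Actin filaments, myosin and their binding proteins generate force in smooth muscle, and resting fibroblasts hold little of this set. Injury signals such as TGF-beta, together with mechanical load, are known to turn on the set in fibroblasts, mainly through the transcription factor SRF and its partners of the myocardin family, which respond to the pool of free actin and to the GTPase RhoA. In the infarcted heart the resulting myofibroblasts lay down and contract the scar. Acta2 encodes smooth muscle alpha-actin, Tagln the actin-binding protein transgelin (SM22), Cnn1 and Cnn2 the calponins of smooth muscle and of many other cells, Myl9 a regulatory light chain of myosin, and Tpm2 and Tpm4 tropomyosins, which lie along the actin filament. Fap encodes a serine protease of the surface of activated fibroblasts, and Lrrc15 a membrane protein with leucine-rich repeats that is used as a marker of myofibroblast-like cells.

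SRF binds the CArG box, 2 C bases and 2 G bases around a core of 6 A or T bases, and RefSeq promoter windows from 250 bases before to 50 bases after the start site (build GRCm38.p6) were given for 7 of the 10 genes, all but Tagln, Fap and Myh11. An exact CArG box was in 2 of the 7 windows, those of Cnn2 and Myl9, against 1.63% of all 32851 windows. When 1 core base was allowed to be C or G, a search chosen after the first had been seen, Acta2 gained 2 sites and Myl9 a second one, and 9.98% of all windows held at least 1 such site. The windows of Cnn1, Tpm2, Tpm4 and Lrrc15 held neither. The box reads the same on both strands, so both were searched at once. The sites are shown because SRF is the best known shared regulator of these genes, each with 10 bases on either side, in the direction of the gene and with the 10 bases of the box in capitals. Positions in the names count back from the RefSeq start site to the first base of the box.
Acta2 at -84, chr19:34255438-34255467, minus strand, 1 core base other than A or T: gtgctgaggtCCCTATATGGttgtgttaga
Acta2 at -34, chr19:34255388-34255417, minus strand, 1 core base other than A or T: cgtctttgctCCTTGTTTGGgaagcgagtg
Cnn2 at -56, chr10:79988534-79988563, plus strand, exact: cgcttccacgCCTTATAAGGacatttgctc
Myl9 at -161, chr2:156775293-156775322, plus strand, exact: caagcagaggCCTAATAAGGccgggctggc
Myl9 at -99, chr2:156775355-156775384, plus strand, 1 core base other than A or T: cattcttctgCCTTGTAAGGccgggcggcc
The sites of Cnn2 and Myl9 lie upstream of all exons of GENCODE release M21, whereas that annotation starts the first exon of Acta2 further upstream and places both Acta2 sites inside it. A match of letters is no evidence of binding in these hearts.

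By GENCODE release M21 on mm10, Acta2 lies on chromosome 19 from 34241090 to 34255590, Tagln on chromosome 9 from 45929619 to 45936058, Cnn1 on chromosome 9 from 22099216 to 22109630 and Cnn2 on chromosome 10 from 79988584 to 79996062. Myl9 spans 156775420 to 156781658 of chromosome 2, Tpm2 43514711 to 43523765 of chromosome 4 and Tpm4 72134975 to 72153142 of chromosome 8. Fap spans 62500943 to 62574075 of chromosome 2, Lrrc15 30269302 to 30283256 of chromosome 16 and Myh11 14194535 to 14291372 of chromosome 16. FPKM are summed over the exons of a gene, and no isoform was told apart.

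The table holds no read counts. Depth relative to the first control mouse, estimated from the steps between the lowest FPKM, ran from 0.813 in the first 10 min mouse to 1.32 in the second 72 h mouse, and the medians of the groups from 0.858 at 10 min to 1.3 at 72 h. No 2 columns were identical. Defining markers of all 8 cell types checked were above 0 in every group, with cardiac myocyte markers summing to 56164 to 59652 FPKM in the control mice, so that the tissue was heart as labelled. From control to 72 h the summed level of 10 fibroblast markers went from 646 to 750 FPKM up to 2978 to 3497, that of 8 macrophage markers from 316 to 374 up to 4682 to 6217 and that of 5 leukocyte markers from 16.2 to 20.3 up to 298 to 321. The 8 cardiac myocyte markers dropped to 20314 to 25413 FPKM, and 8 pericyte markers went from 419 to 441 FPKM to 262 to 339. The 5 vascular smooth muscle markers, Myh11 among them, summed to 99.2 to 109 FPKM in control mice and to 74.0 to 95.4 at 72 h. The 5 platelet markers went from 17.3 to 20.5 FPKM up to 191 to 209, and the 8 endothelial markers from 637 to 691 to 537 to 659. At 24 h the leukocyte markers already summed to 107 to 253 FPKM, the macrophage markers to 678 to 823 and the platelet markers to 45.9 to 118, while the fibroblast markers were at 446 to 571 and the cardiac myocyte markers at 34896 to 44587. Such sums do not separate more cells of a type from more RNA per cell. Col1a1, one of the fibroblast markers, is also among the genes of activated fibroblasts followed below (log2FC 5.77 at 72 h). The part of these shifts in marker levels in the changes below was not tested.

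In the control hearts the contractile genes covered a wide range of levels per length. Tagln had 65.8, 70.4 and 88.5 FPKM in the 3 control mice and Acta2 had 72.5, 55.8 and 85.5 FPKM, so that the highest 2 of the 10 genes overlapped in their ranges. Tpm4 followed with 42.5, 37.1 and 46.0 FPKM and Cnn2 with 34.1, 30.4 and 36.1 FPKM, and these 2 did not overlap. Myh11 had 17.0, 18.1 and 20.1 FPKM and Tpm2 14.1, 14.6 and 19.2 FPKM, which overlapped. Both stood above Lrrc15 with 9.42, 9.88 and 9.68 FPKM, which had the smallest spread for its mean of the 10 genes in the control group. Myl9 had 6.69, 6.67 and 8.11 FPKM, Cnn1 2.57, 2.23 and 2.91 FPKM and Fap 1.24, 1.18 and 1.10 FPKM, each below all values of the gene before it. Per length, Lrrc15 was thus more abundant than Fap in hearts without an infarct, where Acta2 and Tagln are known to come mostly from the smooth muscle of vessels.

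**Figure D1:**
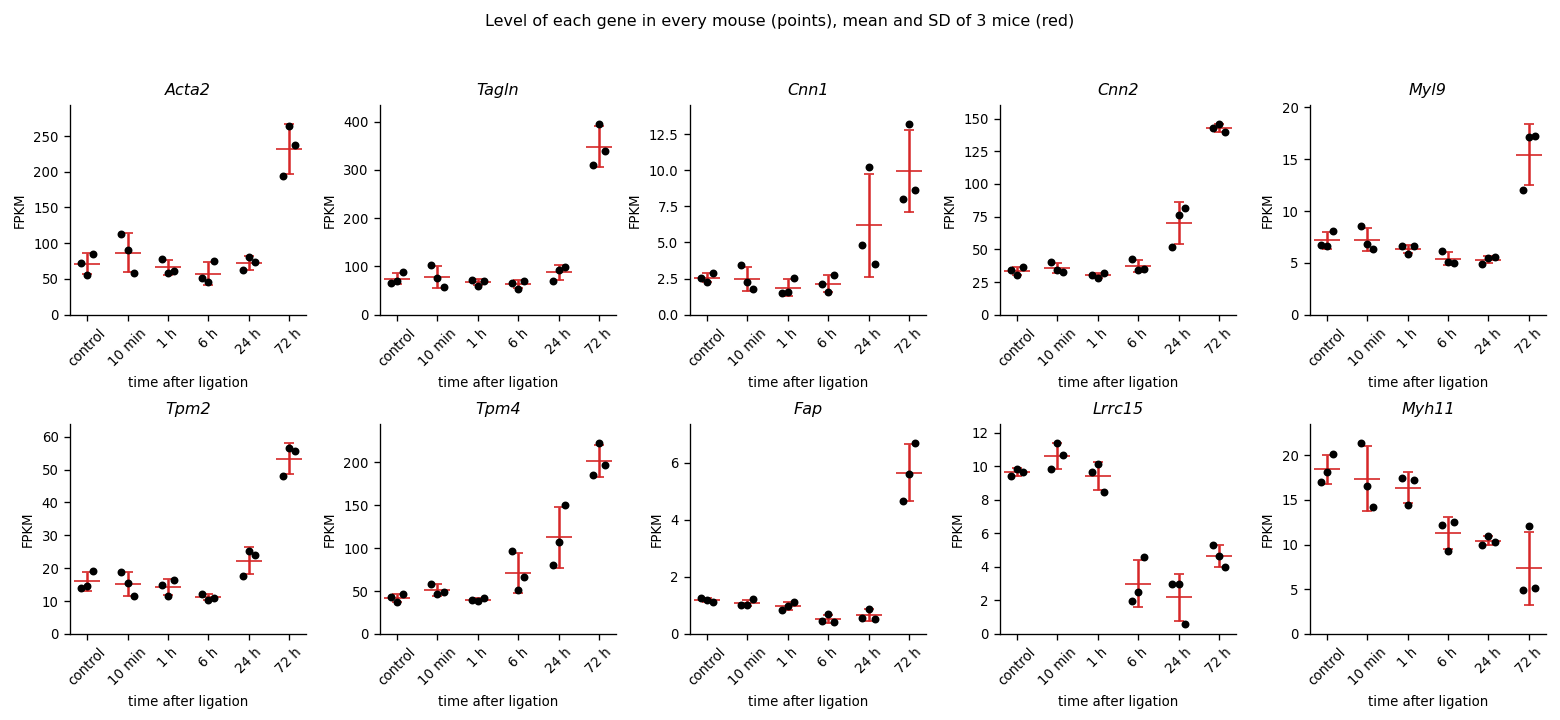
FPKM of the 10 genes in every mouse (black points), with the mean and SD of the 3 mice of each group in red, against time after ligation. In 8 panels the 3 mice at 72 h lie above all control mice, while in the panels of Lrrc15 and Myh11 they lie below them.

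Each AMI group was compared with the control group by limma on log2(FPKM + 1), a two-sided moderated test, with p-values adjusted by Benjamini-Hochberg over every gene tested, and a gene was called higher or lower at an adjusted p under 0.05. The log2FC is the fitted difference of mean log2(FPKM + 1), given ± its SE. At 10 min and at 1 h none of the 10 genes was called by limma in either direction. Of all genes tested, 0.248% were called higher and 0.0978% lower at 10 min, and 0.669% higher and 0.0526% lower at 1 h. With an unadjusted p under 0.05 there was 1 gene at 10 min, Tpm4 (58.6, 46.0 and 49.0 FPKM, log2FC 0.28 ± 0.11, adjusted p = 0.298), and none at 1 h. The first 10 min mouse had the highest level of its group in 8 of the 10 genes, among them Acta2 with 113 FPKM against 90.1 and 58.0 and Myh11 with 21.3 FPKM against 16.5 and 14.2. Its library was the least deep of the 18. At 1 h Acta2 had 58.7 to 77.7 FPKM and Tagln 60.2 to 72.0 FPKM, narrower than at 10 min, and both overlapped the control mice.

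At 6 h few of the contractile genes were called. Tpm4 was the only one of the 10 called higher, near the 11.6% of all genes tested, and Tpm2, Fap, Lrrc15 and Myh11 were called lower, 4 of 10 against 16.8%. Tpm4 had 96.2, 51.4 and 65.8 FPKM, all above the control mice, with a log2FC of 0.71 (SE 0.21, adjusted p = 0.043). This call rested on few mice, since leaving out any mouse but the second 6 h mouse raised the adjusted p to between 0.0502 and 0.133, and without the first 6 h mouse the log2FC was 0.47. It was also lost with no filter on low FPKM (adjusted p = 0.0769). Tpm2, a tropomyosin of smooth and slow skeletal muscle, had 12.2, 10.4 and 10.9 FPKM, all below the control mice (log2FC -0.47 ± 0.13, adjusted p = 0.0352). Leaving out any 1 control mouse moved that p to between 0.0592 and 0.0997, and leaving out the second or the third 6 h mouse moved it to 0.0764 or 0.0647. The call of Tpm2 was lost as well with no filter (0.0567) and with median-of-ratios scaling (-0.37, adjusted p = 0.0631). Myl9 had 6.14, 5.10 and 5.01 FPKM, also below all control mice, but missed the threshold (log2FC -0.35 ± 0.12, adjusted p = 0.0627), and passed it without the first 6 h mouse (-0.43, adjusted p = 0.039). Acta2 with 45.3 to 75.1 FPKM, Tagln with 53.4 to 69.9, Cnn1 with 1.60 to 2.78 and Cnn2 with 34.6 to 42.3 overlapped the control mice, at adjusted p of 0.288, 0.221, 0.371 and 0.332.

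At 24 h the 10 genes were mixed in direction. Cnn2 and Tpm4 were called higher, 2 of 10 and so near the 26.2% of all genes tested, and Myl9, Fap, Lrrc15 and Myh11 were called lower, 4 of 10 against 11.4%. The median log2FC of the 10 genes was 0.12, beside 0.13 for all genes tested. Cnn2 had 51.7, 76.4 and 81.9 FPKM (log2FC 1.02 ± 0.18, adjusted p = 0.008), and Tpm4 had 80.2, 107 and 151 FPKM (log2FC 1.37 ± 0.22, adjusted p = 0.00671). In both genes every mouse at 24 h stood above every control mouse. Myl9 had 4.90, 5.51 and 5.53 FPKM (log2FC -0.37 ± 0.11, adjusted p = 0.0377). That call was lost without any 1 control mouse, at adjusted p of 0.0861 to 0.135, without the first or the second 24 h mouse, at 0.0686 and 0.0633, and with no filter, at 0.0588. Cnn1 had 4.79, 10.2 and 3.54 FPKM, all above the control mice but led by 1 mouse, and its log2FC of 0.90 (SE 0.31) had an adjusted p of 0.0578. Without that second 24 h mouse the log2FC of Cnn1 was 0.53 (adjusted p = 0.0494), and without the third it was 1.18 (0.0158). Tpm2 had 17.5, 25.2 and 23.9 FPKM, which overlapped the control range (log2FC 0.45 ± 0.17, adjusted p = 0.0755), and passed at 0.60 without the first 24 h mouse (adjusted p = 0.0226). With all 18 mice in one limma fit both Cnn1 and Tpm2 were called higher, at adjusted p of 0.0139 and 0.0407. Acta2 with 62.0, 81.3 and 73.6 FPKM and Tagln with 70.1, 92.4 and 99.7 FPKM overlapped the control mice, with log2FC values of 0.03 (SE 0.17, adjusted p = 0.89) and 0.22 (SE 0.16, adjusted p = 0.321). A day after ligation Acta2, the gene most often used to mark myofibroblasts, was thus within the control range in 3 of 3 mice.

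At 72 h all 7 contractile genes other than Myh11 and also Fap were called higher, 8 of 10 against 53.1% of all genes tested, and Lrrc15 and Myh11 were called lower, 2 of 10 against 24.2%. Tagln had 311, 395 and 338 FPKM, 4.65 times the control mean (log2FC 2.21 ± 0.13, adjusted p = 8.74e-07). Acta2 had 194, 263 and 238 FPKM, 3.25 times the control mean (log2FC 1.70 ± 0.16, adjusted p = 1.81e-05). In both, all 3 mice at 72 h stood above all control mice and above all mice of the earlier times. Tpm4 had 186, 222 and 197 FPKM (log2FC 2.24 ± 0.10, adjusted p = 1.86e-07) and Cnn2 had 142.7, 145.9 and 139.7 FPKM (log2FC 2.06 ± 0.07, adjusted p = 7.18e-08). At 72 h Cnn2 had the smallest spread for its mean of the 10 genes, with an SD of 3.10 FPKM around 142.8. Tpm2 had 47.9, 56.5 and 55.5 FPKM (log2FC 1.69 ± 0.12, adjusted p = 2.87e-06). Cnn1 had 7.99, 13.2 and 8.66 FPKM (log2FC 1.59 ± 0.17, adjusted p = 3.18e-05), with the second mouse again apart from the others. Myl9 had 12.0, 17.1 and 17.2 FPKM (log2FC 1.00 ± 0.14, adjusted p = 0.000189), the smallest rise of the 7. The median log2FC of the 10 genes was 1.64, beside 0.29 for all genes tested. Higher calls were 68.7% of all calls at 72 h, but 52.0% after scaling by the median of ratios and 42.4% after quantile normalization, and under both the 8 higher and 2 lower calls of the 10 genes stood.

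**Figure D2:**
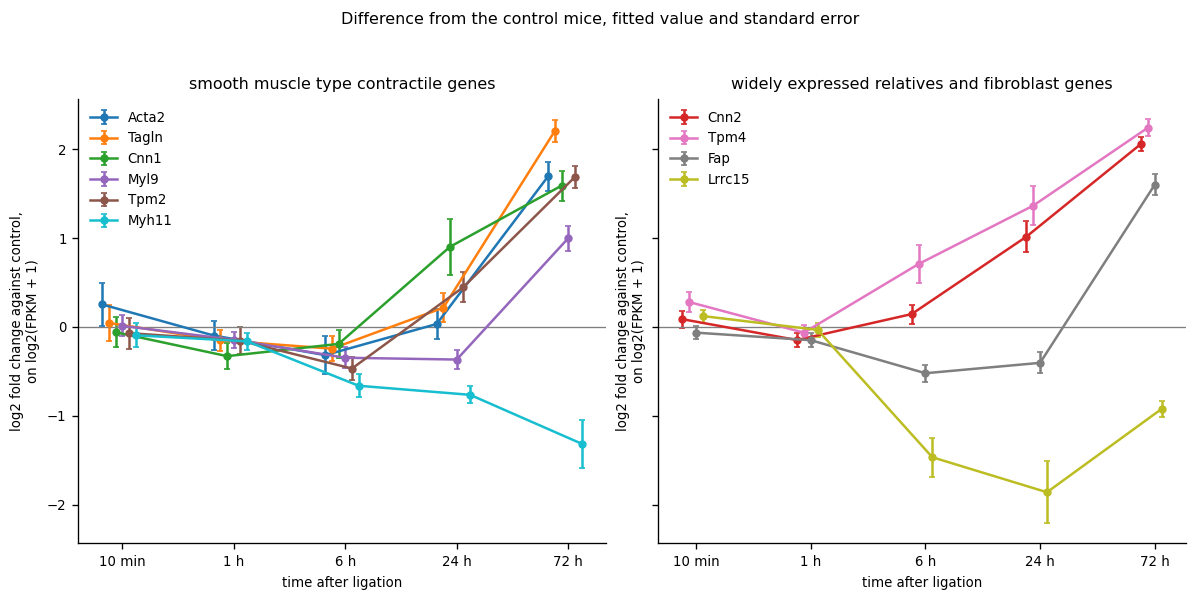
Fitted log2FC against control, on log2(FPKM + 1), at each time after ligation, with the standard error from limma as bars and a line for each gene. Tpm4 is called higher than control from 6 h and Cnn2 from 24 h, the other contractile genes but Myh11, with Fap, are called higher at 72 h, and Myh11 falls to -1.31 at 72 h.

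Between 24 h and 72 h, Acta2, Tagln, Cnn2, Myl9, Tpm2, Tpm4 and Fap were called higher at the later time, 7 of 10 against 29.7% of all genes tested, and none was called lower by limma at an adjusted or an unadjusted p under 0.05, against 13.5% of all genes called lower. The step was 1.66 on the log2 scale for Acta2 (SE 0.15, adjusted p = 0.000223) and 1.99 for Tagln (SE 0.16, adjusted p = 0.000127), beside 1.04 for Cnn2 (SE 0.17, adjusted p = 0.0028) and 0.88 for Tpm4 (SE 0.22, adjusted p = 0.0151). Without the second 72 h mouse Tpm4 had an adjusted p of 0.0601. Cnn1 overlapped between the times (log2FC 0.69 ± 0.34, adjusted p = 0.139). Leaving out the second 24 h mouse made its step 1.06 (adjusted p = 0.0138). Between 6 h and 24 h, Cnn2 (0.87 ± 0.19, adjusted p = 0.0304) and Tpm2 (0.92 ± 0.16, adjusted p = 0.0203) were called higher, 2 of 10 against 12.5% of all genes, and none was called lower by limma, against 1.94% of all genes, nor had any an unadjusted p under 0.05 in that direction. Both calls were lost without any 1 of the 6 h mice or the second 24 h mouse, at adjusted p of 0.0532 to 0.105, and that of Cnn2 also without the third 24 h mouse, at 0.0549. The comparisons with control share their control mice, and those between times share the mice at 24 h.

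Myh11, which marks mature smooth muscle, was called lower from 6 h on, and at 72 h it went the other way from the 7 contractile genes. It had 12.2, 9.27 and 12.5 FPKM at 6 h (log2FC -0.66 ± 0.13, adjusted p = 0.0103), 9.96, 10.9 and 10.3 FPKM at 24 h (-0.76 ± 0.09, adjusted p = 0.00387) and 4.86, 12.1 and 5.15 FPKM at 72 h (-1.31 ± 0.27, adjusted p = 0.00198). All mice from 6 h onward were below the lowest control mouse, with 17.0 FPKM. At 72 h the second mouse stood far from the other two. Without it the log2FC against control was -1.69, and the change from 24 h to 72 h, at -0.55 (SE 0.29, adjusted p = 0.166) with all mice, was -0.92 (adjusted p = 0.00312). At 72 h 1 of the 5 vascular smooth muscle markers was called higher and 2 lower by limma (53.1% and 24.2% of all genes). Beside Myh11, Lmod1 was lower (-0.61, adjusted p = 0.0452) and Kcnmb1 higher (0.35, adjusted p = 0.0353). Mylk (-0.30) and Smtn (-0.08) were not called. With median-of-ratios or quantile scaling 0 of the 5 were called higher and 4 lower. By mean FPKM Myh11 ranked 5 of the 10 genes in the control group and 8 at 72 h.

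Levels were therefore also expressed relative to Myh11 in the same mouse, a ratio of FPKM. The Acta2 to Myh11 ratio was 4.27, 3.09 and 4.25 in control mice, then 6.23, 7.44 and 7.13 at 24 h, and it reached 39.8, 21.8 and 46.2 at 72 h. Acta2 thus left the control range in this ratio at 24 h, when its own level had not. The Tagln to Myh11 ratio was 3.87, 3.90 and 4.40 in control mice, 5.38, 5.76 and 5.59 at 6 h and then 7.04, 8.45 and 9.67 at 24 h, before it reached 63.9, 32.7 and 65.7 at 72 h. It was above all control mice from 6 h on, as were the ratios of Cnn1, Cnn2 and Tpm4 (that of Tpm4 also at 10 min), while those of Myl9 and Tpm2 were so from 24 h. Tagln and Cnn1 were above them at 6 h although their own log2FC was -0.24 and -0.19, and neither was called. Myh11 itself was below all control mice from 6 h on, so a gene of unchanged level can also leave the control range in this ratio. How many of all genes did so was not counted. At 72 h the mean ratio was 6.20 times the control mean for Myl9, 9.29 times for Acta2, 9.77 times for Tpm2, 10.5 times for Cnn1, 12.5 times for Cnn2, 13.3 times for Tagln and 13.9 times for Tpm4. Fap overlapped the control mice in this ratio up to 24 h and had 14.1 times the control mean at 72 h. Lrrc15 was below all control mice at 6 h and 24 h, at 0.502 and 0.399 times the control mean, and overlapped them at 72 h. The second 72 h mouse, with its high Myh11, had the lowest ratio in all 9 genes. Myh11 was at 0.40 times its control mean at 72 h, and its fall enters the size of each of these ratios. By log2FC, Lmod1 (-0.61), Mylk (-0.30) and Smtn (-0.08) fell less than Myh11 (-1.31), and Kcnmb1 was higher (0.35). Ratios to another smooth muscle gene were not taken. Where groups did not overlap, the exact two-sided permutation p was 0.1, the smallest that 3 mice against 3 allow, and 0.205 after adjustment over the 45 tests of 9 genes at 5 times.

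**Figure D3:**
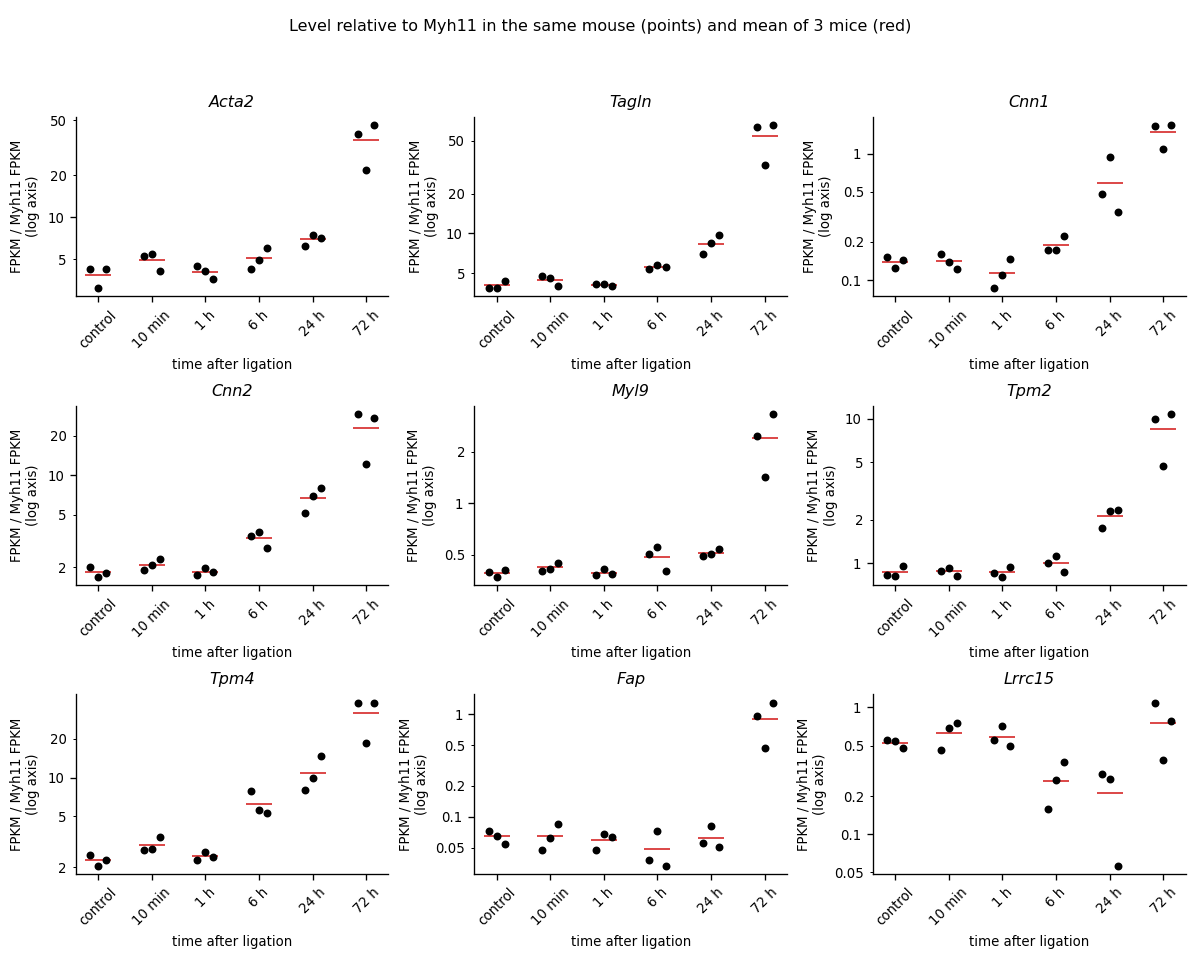
FPKM of 9 genes divided by the FPKM of Myh11 in the same mouse (black points, log axis), with the mean of 3 mice as a red line, against time after ligation. Acta2, Tagln, Cnn2, Tpm2 and Tpm4 rise at 24 h and 72 h, and the second 72 h mouse is the lowest of its group in every panel.

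The 2 genes chosen as fibroblast surface genes took opposite directions at 72 h. Over the 18 mice their Pearson's r was 0.10, and which cells held the Lrrc15 RNA in these hearts was not tested. Fap had 0.466, 0.682 and 0.417 FPKM at 6 h (log2FC -0.52 ± 0.10, adjusted p = 0.00892) and 0.550, 0.888 and 0.523 FPKM at 24 h (-0.40 ± 0.12, adjusted p = 0.0336), below all control mice at both times. The call of Fap at 24 h was lost without any 1 control mouse, at adjusted p of 0.0836 to 0.112, without the first 24 h mouse, at 0.0673, and without the third, at 0.056. At 72 h Fap had 4.68, 5.60 and 6.70 FPKM, 4.80 times the control mean (log2FC 1.60 ± 0.12, adjusted p = 3.20e-06), and its rise from 24 h was 8.66-fold by mean FPKM (log2FC 2.01 ± 0.15, adjusted p = 9.45e-05). The log2 values understate the change of a gene with so low a level. Lrrc15 had 9.64, 10.2 and 8.50 FPKM at 1 h, close to the control mice, and then 1.94, 2.47 and 4.61 FPKM at 6 h (log2FC -1.47 ± 0.22, adjusted p = 0.0045) and 3.0, 2.99 and 0.583 FPKM at 24 h (-1.86 ± 0.35, adjusted p = 0.00981). At 72 h it had 5.31, 4.63 and 4.01 FPKM, still less than the lowest control mouse in 3 of 3 mice (-0.92 ± 0.09, adjusted p = 2.74e-05). The increase of Lrrc15 from 24 h to 72 h missed the threshold (0.94 ± 0.35, adjusted p = 0.0638). It passed without the third 24 h mouse, whose level was the lowest of all 18, with a log2FC of 0.49 (adjusted p = 0.0135). The same held when the second was left out (1.16, adjusted p = 0.0497). Lrrc15 thus had 8.50 to 11.4 FPKM in the mice up to 1 h and at most 5.31 FPKM from 6 h on. Of the 10 fibroblast markers, 2 were called higher and 4 lower at 24 h (26.2% and 11.4% of all genes), and 8 higher and 1 lower at 72 h (53.1% and 24.2%). The marker lower at 72 h was Gsn (log2FC -1.27 ± 0.20), named after its values were seen.

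Most of the 10 genes have close relatives, and the share of each in the summed FPKM of its family was taken in every mouse. The actins of the heart were dominated by Actc1, the alpha-actin of cardiac muscle, with 4880 to 5700 FPKM in control mice and 2671 to 3294 FPKM at 72 h (log2FC -0.87 ± 0.13, adjusted p = 0.000301). After quantile normalization, which sets the most abundant genes to nearly equal values, Actc1 had a log2FC of 0.01. Acta2 made up 1.18%, 1.06% and 1.37% of actin FPKM in the control mice and 4.0%, 5.94% and 5.13% at 72 h, without overlap. The cytoplasmic actins rose at the same time, Actb from 162 to 1004 FPKM on average (log2FC 2.63 ± 0.12, adjusted p = 2.15e-07) and Actg1 from 36.2 to 192 FPKM (2.38 ± 0.10, adjusted p = 1.80e-07), and Actg2, the actin of visceral smooth muscle, went from 0.621 to 3.32 FPKM (1.41 ± 0.15, adjusted p = 2.93e-05). Acta1, the skeletal muscle actin, had 176 FPKM in control mice and 240.3 at 72 h (0.46 ± 0.14, adjusted p = 0.0168), a call that was lost with median-of-ratios scaling (0.15, adjusted p = 0.365) and quantile normalization (0.36, adjusted p = 0.0567). Coding sequences of the actins are similar, and how reads that fit several of them were counted for these FPKM is not given in the sources used here, so that low levels such as that of Actg2 are uncertain.

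Tropomyosin RNA shifted in the same way from the cardiac to the other forms. Tpm1, the main tropomyosin of heart muscle, had 3168 to 3380 FPKM in control mice and 1510 to 1747 at 72 h (log2FC -1.03 ± 0.10, adjusted p = 2.57e-05, and -0.39 after quantile normalization). Tpm4 had 1.23%, 1.13% and 1.41% of tropomyosin FPKM in control mice and 8.81%, 11.5% and 10.3% at 72 h, and was above all control mice at every earlier time but 1 h, with 3.42%, 1.65% and 2.14% at 6 h. Tpm2 went from 0.405%, 0.444% and 0.588% to 2.27%, 2.93% and 2.89% at 72 h. Tpm3, another tropomyosin of non-muscle cells and slow muscle, rose from 34.5 to 137 FPKM (log2FC 1.96 ± 0.07, adjusted p = 4.73e-08).

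The shares of Tagln and Cnn1 at 72 h overlapped with those of the control mice. Tagln held 77.2%, 78.5% and 81.8% of transgelin FPKM in control mice, only 66.4%, 67.9% and 64.9% at 24 h, and again 77.2%, 79.4% and 79.8% at 72 h. Tagln2, the form of blood and many other cells, went from 18.9 FPKM in control mice to 43.8 at 24 h (log2FC 1.15 ± 0.15, adjusted p = 0.00414) and to 92.8 at 72 h (2.23 ± 0.08, adjusted p = 5.12e-08). Tagln3 stayed below an FPKM of 1 in all mice and was not tested. Cnn2 held 65.7% of calponin FPKM on average in control mice, 57.0% at 6 h, when Cnn3 had gone from 14.9 to 26.1 FPKM, and 72.5% at 72 h, each time without overlap with control. The share of Cnn1 was 5.03% in control mice, 3.33% at 6 h and 5.02% at 72 h, and its 72 h values lay on both sides of the control values. Cnn3 had 44.3 FPKM at 72 h (log2FC 1.51 ± 0.08, adjusted p = 6.12e-07).

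Among the myosin genes, Myl9 was a small part of its family, with 0.557% of the FPKM of Myl9, Myl12a and Myl12b in control mice, 0.304% at 24 h and 1.14% at 72 h, without overlap with control at either time. Myl12a had 1205 FPKM in control mice and 1192 at 72 h (log2FC -0.02 ± 0.08, adjusted p = 0.868, with -0.33 after median-of-ratios scaling and 0.21 after quantile normalization), and Myl12b went from 74.2 to 154 FPKM (1.04 ± 0.06, adjusted p = 1.10e-06). Myh11 fell from 5.94%, 6.54% and 6.78% of the FPKM of 4 heavy chains to 0.639%, 1.16% and 0.671% at 72 h. The non-muscle heavy chain Myh9 rose from 234 to 816 FPKM (log2FC 1.78 ± 0.13, adjusted p = 2.71e-06) and Myh10 from 9.93 to 25.8 FPKM (1.29 ± 0.12, adjusted p = 1.70e-05), and Myh14 fell from 24.3 to 7.79 FPKM (-1.54 ± 0.13, adjusted p = 8.79e-06). Fap was set beside Dpp4, the related protease, and took 11.01% of their sum in control mice, 14.1% at 24 h and 25.4% at 72 h. Dpp4 itself had 9.52 FPKM in control mice, 3.93 at 24 h and 17.0 at 72 h (log2FC 0.76 ± 0.14, adjusted p = 0.00101, and 0.0555 after quantile normalization). In each of these shares the absence of overlap stands for an exact permutation p of 0.1, or 0.225 after adjustment over 45 tests.

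**Figure D4:**
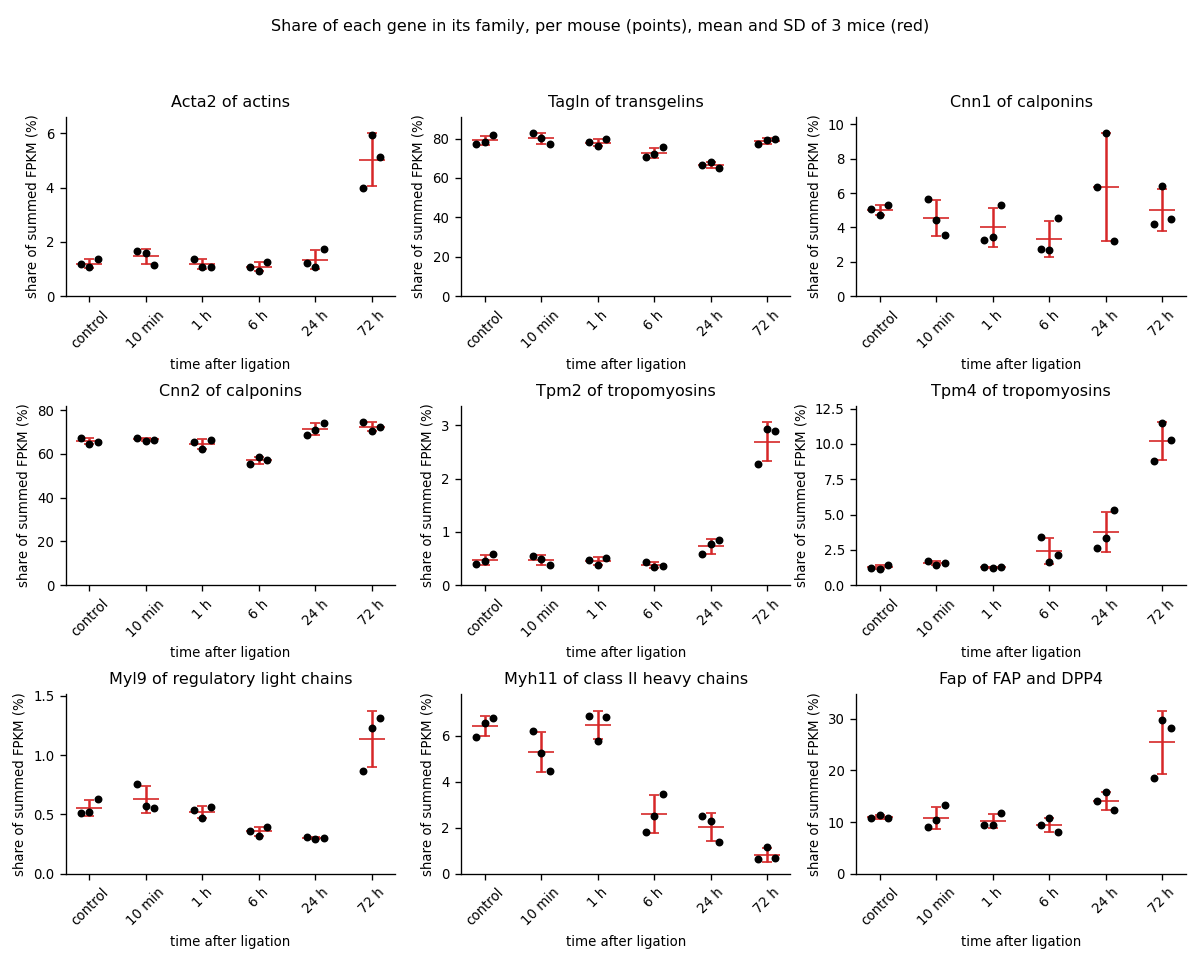
Share of each gene in the summed FPKM of its family, in percent, for every mouse (black points), with the mean and SD of 3 mice in red, against time after ligation. Acta2, Tpm2, Tpm4, Myl9 and Fap gain share at 72 h, Myh11 loses it from 6 h on, and the ranges of Tagln and Cnn1 at 72 h overlap those of the control mice.

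Many of the contractile genes also varied together between mice of the same group. After the mean of each group was taken off log2(FPKM + 1), Pearson's r over the 18 mice ran from 0.42 to 0.90 for the 15 pairs of Acta2, Tagln, Cnn1, Myl9, Tpm2 and Myh11, with a median of 0.61. The closest of these pairs was Tagln and Tpm2 (0.90), followed by Acta2 and Tagln (0.85). Cnn2 and Tpm4, the more widely used forms, had 0.86 with each other, and Cnn2 had 0.77 with Tpm2 and 0.71 with Tagln. Myh11 had 0.60 with Acta2 within groups, and -0.46 when the differences between groups were left in. Fap had values of -0.17 with Acta2 and -0.22 with Tagln within groups, although across groups it had 0.89 and 0.91. Lrrc15 had -0.65 with Tpm4 within groups. Mice of a group share a surgery time but differ in depth and in the tissue sampled, so that these values are a description. They were not taken for pairs of other genes, so whether these genes vary together more than others do was not tested.

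Over all 18 mice, the 3 genes whose log2(FPKM + 1) was most like Acta2 were Tagln (Pearson's r 0.96), Actg2 (0.96) and Itga11 (0.96), an integrin chain of collagen-binding fibroblasts. Fap was nearest to Lrrc17 (0.99), Mmp23 (0.99) and Man2b2 (0.98). Myl9 had Chd3 (0.96), Fap (0.95) and Col14a1 (0.95), a fibril-associated collagen. Tpm4 was nearest to Hcls1 (0.99), a gene of blood cells, Actb (0.99) and Pls3 (0.99), and Cnn2 to Tmsb10, Myl6 and Pmepa1 (0.99 each). Tagln had Sgol1, Ptgr1 and Dstn (0.98 each), Tpm2 had Adcy7, Aida and Rqcd1 (0.98 each), and Cnn1 had Cnih1 (0.96), Rer1 (0.95) and Bud31 (0.94). Lrrc15 had Fblim1 (0.98), Tmem218 (0.98) and Pcsk6 (0.97). For Myh11 the nearest were Yars2 (0.89), Ptprm (0.89) and Ptprb (0.88), the last a phosphatase of endothelium. The 6 groups set most of each value, since large steps at 72 h were common to many genes.

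Further genes of the pathway were counted from lists written by hand. Among 18 other smooth muscle genes, 8 were called higher and 5 lower at 72 h (6 and 9 of 17 with either other scaling), where 53.1% of all genes tested were called higher and 24.2% lower, with a median log2FC of -0.07 beside 0.29 for all genes, and the 4 called genes with the largest change were Csrp1 (1.81 ± 0.09), Cald1 (1.60 ± 0.11), Cnn3 and Actg2, all higher. Csrp1 encodes a LIM protein of smooth muscle and Cald1 the actin-binding protein caldesmon, and both also serve other cells. At 6 h the same list had 2 genes higher and 6 lower, when the shares of all genes were 11.6% and 16.8%, and at 24 h 3 higher and 3 lower, when they were 26.2% and 11.4%. Of 24 genes of adhesions and stress fibres, 7 of which belong to the families above, 10 were called higher and 1 lower at 6 h, 17 higher and none lower at 24 h, and 19 higher and 4 lower at 72 h, when the median was 1.33. The shares of all genes at these times are those given for the smooth muscle list, 11.6%, 26.2% and 53.1% higher and 16.8%, 11.4% and 24.2% lower. Csrp2 (3.34 ± 0.13, adjusted p = 1.13e-07), a LIM protein that acts with SRF, changed most, from 4.44 to 54.0 FPKM, followed by Actb, Actn1 (2.40 ± 0.13), an alpha-actinin that crosslinks actin, and Actg1.

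Of the 19 genes of SRF and RhoA control that were tested, 6 were called higher and none lower at 6 h, 8 higher and none lower at 24 h, and 12 higher and 1 lower at 72 h (11 and 4 with median-of-ratios scaling). Over all genes the higher calls were 11.6%, 26.2% and 53.1% and the lower calls 16.8%, 11.4% and 24.2%. The median of the list was 0.69 at 72 h, beside 0.29 for all genes. The largest changes were those of Cfl1, the actin-severing cofilin (2.50 ± 0.08), Tgfbr1, a TGF-beta receptor (1.95 ± 0.09), Rhoc, a relative of RhoA (1.71 ± 0.08), and Tgfb1, the ligand (1.54 ± 0.07). Srf and its partners were looked at after these values had been seen. Srf had 20.5 FPKM in control mice and 20.1 at 72 h (log2FC -0.02 ± 0.07, adjusted p = 0.788), and it was called lower with median-of-ratios scaling (-0.32, adjusted p = 0.00242) and quantile normalization (-0.35, adjusted p = 0.00151). Mkl1, a partner of SRF that is released by actin assembly, rose from 2.77 to 8.68 FPKM (1.36 ± 0.08, adjusted p = 1.37e-06), and Myocd, the partner found in heart and smooth muscle, fell from 3.99 to 2.46 FPKM (-0.53 ± 0.10, adjusted p = 0.000974). Mkl2, another partner, had 35.9 FPKM in control mice, more than either, and was not called at 72 h (0.07, adjusted p = 0.486). With median-of-ratios scaling Mkl2 was called lower (-0.23, adjusted p = 0.0253).

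Of 20 genes of activated fibroblasts, 5 were called higher and 4 lower at 6 h, 15 higher and 1 lower at 24 h, and 19 higher and 1 lower at 72 h, with medians of 0.01, 1.26 and 3.49. All genes had 11.6%, 26.2% and 53.1% called higher and 16.8%, 11.4% and 24.2% lower, with medians of -0.08, 0.13 and 0.29. Tnc, a matrix protein of wounds (log2FC 6.58 ± 0.21), Postn, periostin (6.37 ± 0.12), and the collagen chains Col1a1 (5.77 ± 0.16) and Col3a1 (5.52 ± 0.16) changed most at 72 h. Tnc and Postn had risen by 24 h, to 35.3 FPKM from 0.211 and to 30.4 FPKM from 7.09 on average, at adjusted p of 5.68e-05 and 0.00433, a time at which Acta2 and Tagln were within or near the control range and Fap was below it. None of the 4 lists had a gene called at 10 min by limma, and 1 gene, of the list on SRF and RhoA control, was called at 1 h.

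**Figure D5:**
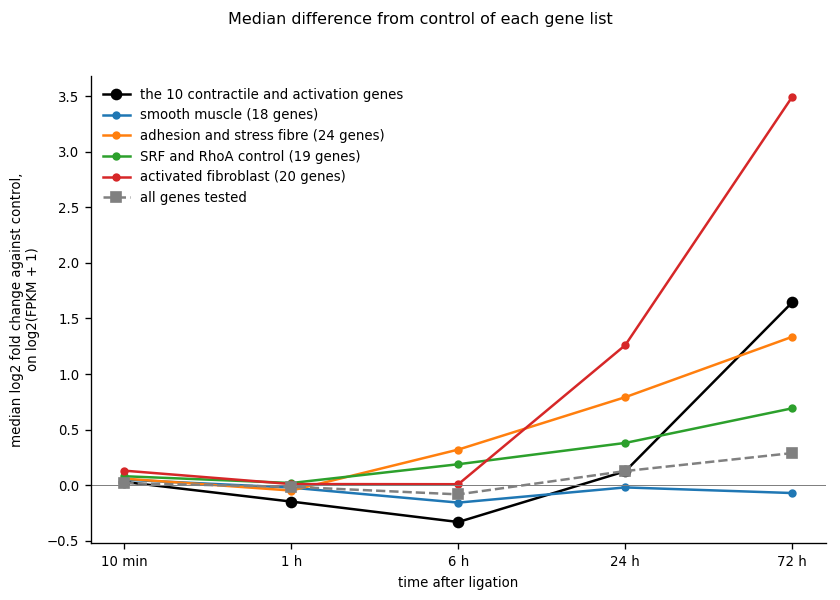
Median log2FC against control of the 10 genes (black), of 4 lists of related genes and of all genes tested (grey, dashed), at each time after ligation, on log2(FPKM + 1). The 10 genes lie near all genes at 24 h, with 0.12 beside 0.13, and at 1.64 beside 0.29 at 72 h, whereas the activated fibroblast list is at 1.26 by 24 h.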

How the data were processed

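The authors trimmed reads with cutadapt 1.18, aligned them to mm10 with HISAT2 2.1.0 and estimated FPKM with StringTie 1.3.4d, and the deposited FPKM, 1 value per gene symbol and mouse, were used without further scaling. The annotation is not given in the sources used here. A correction for reads that fit several genes is named for the comparisons the authors ran in cufflinks, but not for these FPKM. Acta2, Cnn1 and Cnn2 carry more than 8 significant digits, as do 3516 of 19462 symbols above 0, and a sum of several rows would look so. Groups came from the sample titles. The 10 genes and all lists were chosen with earlier results of these data known. Named were the 10 genes, their families, the 3 genes most correlated with each, and up to 4 called genes of each further list with the largest change at 72 h. Genes named beyond these were picked after their values were seen.

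Genes that reached an FPKM of 1 in any mouse, 13333 in all, were tested in R 4.3.3 with limma 3.58.1 (lmFit, eBayes with trend) on log2(FPKM + 1), using the 6 mice of a comparison. Genes with 1 value in all 6 were dropped. SE is limma's standard error. A log2 fold change on this scale understates changes of low genes. The p-values measure the spread between mice, and their number limits the precision. A moderated test of ratios to Myh11 had been planned but was not used, since the noise of Myh11 enters every gene in it, and exact permutation tests (scipy 1.17.1) replace it. Shares were tested likewise. Positions are those of GENCODE release M21. Steps were tested on simulated data. Python 3.11.15, numpy 2.4.6, pandas 2.3.3 and matplotlib 3.10.9 were used. As alternatives, the pseudocount was set to 0.1, the filter was dropped or put on the mean FPKM (at least 1), and fits used median-of-ratios and quantile scaling, all 18 mice together, a replicate block, no variance trend, or 1 mouse fewer.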

Additional observations from a re-analysis of the deposited data

Results flagged for a closer look

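Myl9 and Fap were called lower than control at 24 h and higher at 72 h, and the direct comparison of the 2 times also passed the threshold. They were flagged by these same calls on the same mice, so the direct comparison is no further support. How many of all genes met this rule was not counted. Both calls at 24 h were lost without any single control mouse. With the replicate block in limma they were lost as well, at adjusted p of 0.0596 for Myl9 and 0.0616 for Fap. The log2 difference of 72 h against 24 h was 1.37 for Myl9 and 2.01 for Fap, by limma with adjusted p of 0.0005 and 9.45e-05, with 3 of 3 mice at 72 h above all mice at 24 h in both genes.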

How the results depend on the processing

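All counts of the 10 genes called at 10 min, 1 h and 72 h against control were the same under every alternative run, with 8 higher and 2 lower at 72 h, and no log2FC of the 10 genes that was called changed sign. Of 977 single log2FCs recomputed, 915 stayed on the same side of the threshold, called or not, 42 lost a call and 20 gained one. The count higher at 6 h, 1 gene, was 0 with no filter and 0 to 1 on leaving out single mice. The count lower at 6 h, 4, was 3 with no filter, median-of-ratios scaling or the replicate block, where Tpm2 was lost each time, and 3 to 5 on leaving out single mice. It was 3 with a filter on the mean, under which Fap was too low to be tested at 6 h and 24 h. The count higher at 24 h, 2, was 4 with all 18 mice in one fit. It gained Cnn1 with a pseudocount of 0.1 and without the second or the third 24 h mouse. Tpm2 was gained with the replicate block and without the first 24 h mouse. The count lower at 24 h, 4, was 3 with no filter, where Myl9 was lost, 3 with a filter on the mean, again without a test of Fap, 2 with the replicate block and 2 to 3 on leaving out single mice. The count higher from 6 h to 24 h, 2, was 1 with no filter, 1 with median-of-ratios scaling, 1 with quantile normalization, 4 with all 18 mice, 0 with the replicate block and 0 to 3 on leaving out single mice. From 24 h to 72 h the count higher, 7, gained Cnn1 and Lrrc15 with all 18 mice, with the replicate block or without the second 24 h mouse. It gained Lrrc15 without the third 24 h mouse and lost Tpm4 without the second 72 h mouse. The count lower from 24 h to 72 h, 0, was 0 to 1, where 1 is Myh11 without the second 72 h mouse. Replicate numbers did not pair the mice, and the cause of these shifts was not tested. Over all genes the median log2FC was 0.13 at 24 h and 0.29 at 72 h, and with quantile normalization it was -0.05 and -0.12, under which Myl9 at 72 h was 0.61 and Lrrc15 -1.42. Higher calls were 71.7%, 40.9%, 69.8%, 86.6% and 68.8% of all calls at 10 min, 6 h, 24 h, from 6 h to 24 h and from 24 h to 72 h, against 56.9%, 56.7%, 52.2%, 51.9% and 53.0% with median-of-ratios scaling and 58.0%, 44.2%, 44.7%, 57.0% and 44.7% with quantile normalization. Of 45 mean shares, 10 moved by more than 1 SD with quantile normalization, and Acta2 at 72 h then had 3.54% of actin FPKM, Tpm2 1.88% and Tpm4 7.31% of tropomyosin FPKM. Alternatives of the planned test of ratios to Myh11 were not run. The other scalings of related and listed genes were added after seeing the data.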
